A study of Mus musculus with 2 samples.

Results

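The nuclear genes that encode the mitochondrial respiratory chain were examined in mouse spleen RNA. The spleen houses lymphocytes and clears aged erythrocytes, and in mice it also forms new ones. Genes were chosen by name: symbols that start with Nduf (complex I), Sdh followed by a, b, c or d (complex II), Uqcr or equal to Cyc1 (complex III), Cox followed by a digit from 4 to 8 and a letter (complex IV) and Atp5 (complex V), with Cycs added. The match by name used no measured value, although the genes were chosen with earlier results of these data known. It found 75 genes among the 8251 genes that the arrays measured with a probe set assigned to a single gene. These 75 were read by 103 probe sets, and where a gene had several, the one brightest on average in log2 signal stood for it. By name the rule also took in 4 assembly factors, Ndufaf1, Ndufaf4, Sdhaf1 and Sdhaf2, which help to build complexes I and II but are not part of them.

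The data came from 2 oligonucleotide arrays, which formed 1 group. The labels describe both as spleen total RNA bought from Clontech under a single catalogue number. They give no strain, age, treatment or control, and they do not say whether the arrays shared a tube of RNA or how many animals were pooled. The SD between the arrays (n = 2 throughout) may therefore be technical, and no p-value was computed. Precision is limited by having only this many arrays. In such bulk RNA, fewer cells of a type and less RNA per cell cannot be told apart.

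The respiratory chain passes electrons from fuel molecules to oxygen in the inner mitochondrial membrane. Complex I takes electrons from NADH and complex II takes them from succinate, a step it shares with the citric acid cycle. Ubiquinone carries them to complex III, cytochrome c carries them on to complex IV, and complex IV hands them to oxygen. Complexes I, III and IV pump protons, and complex V, the ATP synthase, lets the protons flow back and makes ATP. Some core subunits of these complexes are encoded in the mitochondrial genome itself. In spleen the chain is known to serve dividing lymphocytes and maturing red cells, which lose their mitochondria as they become erythrocytes.

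Most respiratory chain genes gave strong signal. Bright here means a signal intensity above the 60th percentile of the array in each of the arrays (346.32 for array 1 and 342.22 for array 2, in arbitrary units). Of the 75 genes 57 were bright, or 76.0%, against 45.2% of all 8251 named genes. The median log2 signal was 10.32 for the respiratory chain genes and 8.29 for all named genes. Bacterial control probe sets, whose targets are foreign to mouse, reached at most 95 on array 1 and 76.2 on array 2. Above these values on both arrays lay 67 of the 75 genes, against 73.9% of all named genes. A further 3 genes exceeded the controls on 1 array and 5 on neither. Between the bright genes and the rest, 2 genes passed the cutoff on 1 array alone, against 4.76% of all named genes. The count of bright genes was 48 with the cutoff at the 75th percentile, against 28.5% of all named genes, and 61 with it at the 50th, against 55.7%. It was 47 when a gene's probe sets were averaged in log2 signal, not in linear intensity, against 38.3%. It was 41 of 61 without probe sets whose suffix marks similar sequences or relaxed probe selection, against 43.4%. Brightness depends on the probe sequence as well as on the transcript, so genes are not ranked against each other below.

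**Figure D1:**
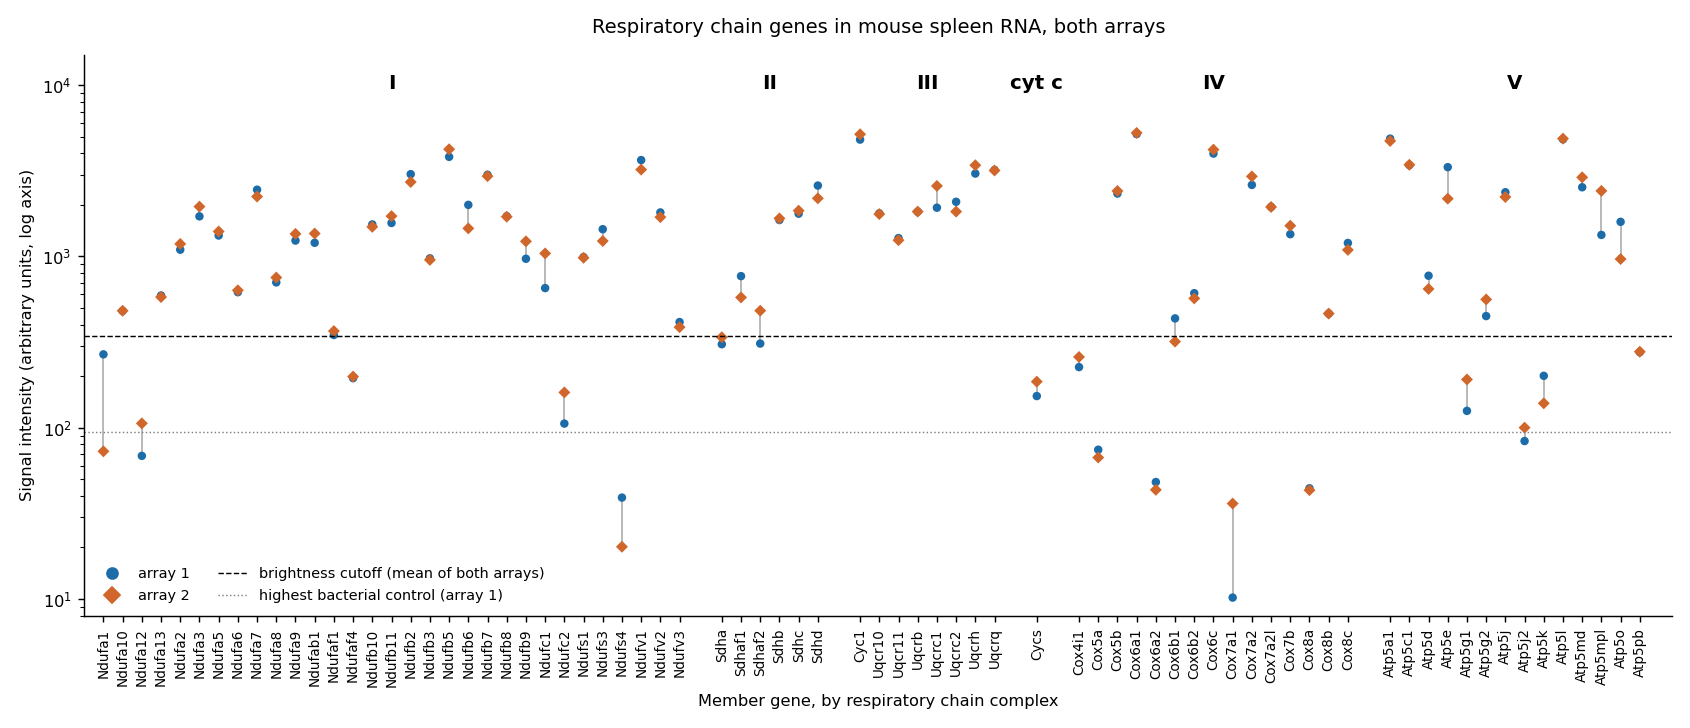
Signal intensity (arbitrary units, log axis) of the 75 respiratory chain genes on array 1 (circles) and array 2 (diamonds), grouped by complex, with lines at the mean brightness cutoff of both arrays and at the highest bacterial control of array 1. All 8 genes of complex III lie above the cutoff, while Ndufs4, Cox5a, Cox6a2, Cox7a1 and Cox8a lie within the range of the bacterial controls.

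Complex I was represented by 31 genes, of which 26 were bright. Its catalytic arm holds the NADH-binding site and a chain of iron-sulfur clusters, and all 4 measured core genes of this arm were bright. Ndufv1, which binds NADH and its flavin cofactor, gave 3645.0 on array 1 and 3207.4 on array 2 (3426 ± 309, SD). Its partner Ndufv2 gave 1804.0 and 1694.1 (1749 ± 77.7). The large iron-sulfur subunit Ndufs1 gave 989.9 and 981.0 (985 ± 6.29), and Ndufs3 gave 1440.2 and 1229.0 (1335 ± 149). These 4 genes were all slightly higher on array 1, by at most 1.17-fold. Among bright named genes 49.9% were higher on array 2.

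Accessory subunits of complex I surround the catalytic arm and the membrane arm and hold the complex together. Of 25 measured, 21 were bright, with means from 399.95 for Ndufv3 to 4012.5 for Ndufb5. Ndufab1, the mitochondrial acyl carrier protein that also serves fatty acid and lipoate synthesis, gave 1199.9 and 1358.8 (1279 ± 112). Ndufa13, also known as the cell death regulator Grim19, gave 590.9 and 578.6 (585 ± 8.70). The accessory genes that were not bright were Ndufa1, Ndufa12, Ndufc2 and Ndufs4. Ndufa1 gave 268.0 on array 1 and 72.8 on array 2, so that it exceeded the bacterial controls on array 1 alone. Ndufa12 gave 68.5 and 106.0, above the controls on array 2 alone, and Ndufc2 gave 105.7 and 160.7. Ndufs4, at 39.1 and 20.2, lay within the range of the controls on both arrays. Of both assembly factors of complex I, Ndufaf1 lay just above the cutoff at 347.6 and 366.4, and Ndufaf4 lay below it at 194.7 and 198.8.

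Complex II is the succinate dehydrogenase of the citric acid cycle and has 4 subunits, all encoded in the nucleus and all measured. The iron-sulfur subunit Sdhb gave 1629.5 and 1665.3 (1647 ± 25.3). The membrane anchors gave 1774.4 and 1847.4 for Sdhc (1811 ± 51.6) and 2589.0 and 2181.0 for Sdhd (2385 ± 288.5). These 3 subunits were bright. Sdha, the flavoprotein that oxidises succinate, was not bright at 307.0 and 337.2 (322 ± 21.4), although it stayed well above the bacterial controls on both arrays. The assembly factor Sdhaf1 was bright at 766.6 and 575.9. Sdhaf2, which attaches the flavin to Sdha, gave 309.8 and 481.9 and passed the cutoff on array 2 alone.

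Complex III, the cytochrome bc1 complex, was bright in all 8 measured genes. Cyc1, the haem-bearing cytochrome c1 that passes electrons to cytochrome c, gave 4800.7 and 5159.2 (4980 ± 253). The core proteins Uqcrc1 and Uqcrc2 gave 1923.2 and 2576.1 (2250 ± 462) and 2081.4 and 1824.7 (1953 ± 182). The 5 small accessory subunits had means from 1260.45 for Uqcr11 to 3222.5 for Uqcrh. Apart from Uqcrc1, which was 1.34-fold higher on array 2, values of the complex III genes on both arrays lay within 1.14-fold of each other. Cytochrome c itself was not bright: Cycs, the soluble carrier that also triggers apoptosis when it leaves the mitochondrion, gave 153.0 and 185.7 (169 ± 23.1). It was read by a single probe set.

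Complex IV, cytochrome c oxidase, was mixed, with 9 of 15 genes bright. When probe sets were averaged in log2 signal 5 of 15 were bright, or 33.3%, which is below the 38.3% of all named genes in that setting. Among its generally expressed subunits, Cox5b gave 2325.1 and 2407.5 (2366 ± 58.3) and Cox7b gave 1347.1 and 1509.4 (1428 ± 115). Cox6c gave 3978.5 and 4195.0 (4087 ± 153) on its bright probe set, but 114.9 and 24.4, and 23.4 and 74.8, on the others. It was not bright when the log2 signals of all its probe sets were averaged. The bright probe set has the suffix _f_at, for a family of similar sequences, and Cox6c was not measured with marked suffixes left out. By contrast, the core nuclear subunit Cox4i1, which takes part in regulation of the enzyme by ATP, gave 225.8 and 258.7 (242 ± 23.3) on its brighter probe set and was not bright on either. Cox5a gave 74.4 and 67.0 (70.7 ± 5.23), no higher than the bacterial controls, and its other probe set gave 24.3 and 70.2. Cox6b1, on the cytochrome c side of the enzyme, gave 434.4 and 318.1 and passed the cutoff on array 1 alone. Its only probe set has the suffix _r_at (relaxed probe selection), so Cox6b1 was not measured with marked suffixes left out. Thus subunits that the assembled enzyme holds in equal number fell on both sides of the cutoff. Cox7a2l, which links complexes III and IV into supercomplexes, gave 1943.5 and 1941.3 (1942 ± 1.56).

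Several complex IV subunits exist in a general form and a form known from heart and skeletal muscle or from testis. For subunit VIa, the general Cox6a1 was bright at 5171.3 and 5252.5 (5212 ± 57.4) and the muscle form Cox6a2 lay within the range of the bacterial controls at 48.2 and 43.4 (45.8 ± 3.39). For subunit VIIa, the general Cox7a2 was bright at 2611.0 and 2927.7 (2769 ± 224) and the muscle form Cox7a1 lay within that range at 10.2 and 36.1 (23.2 ± 18.3). In both pairs the general form was the bright one. The single probe set of Cox6a1 carries the suffix _f_at, for a family of similar sequences, so Cox6a1 was not measured with marked suffixes left out. Subunit VIII went the other way on the deposited probe sets. The gene names of these probe sets come from an old platform annotation and could not be checked against probe sequences here. The general Cox8a gave 44.3 and 43.2 (43.75 ± 0.778), no higher than the controls. The muscle and brown fat form Cox8b gave 463.1 and 463.5 (463 ± 0.283), and the testis form Cox8c gave 1196.8 and 1090.4 (1144 ± 75.2), both bright. The testis form Cox6b2 was bright too, at 609.5 and 568.3 (589 ± 29.1).

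The bright calls of these tissue forms rested on 1 probe set each. The bright one of Cox8b has the suffix _r_at (relaxed probe selection), and its plain probe set gave 67.8 and 38.7. That of Cox6b2 carries the suffix _f_at, which marks a family of similar sequences, and its other probe sets gave 246.2 and 223.0, and 64.3 and 58.7. For Cox8c the bright probe set has the plain suffix, while the other gave 6.9 and 42.7. When probe sets were averaged in log2 signal, which gives low readings more weight than linear averaging, none of Cox6b2, Cox8b and Cox8c was bright. Markers of other tissues were read beside them. Of 12 skeletal muscle and heart genes 1 was bright, Actc1, at 581.8 and 577.2 on a probe set with the suffix _f_at. The 12 summed to 1558 on array 1 and 1615 on array 2. Above the bacterial controls on both arrays lay 4 of the 12, Actc1, Ckm at 201.7 and 258.0, Actn3 at 205.2 and 151.3, and Myl1 at 209.3 and 133.5. The skeletal muscle actin gene Acta1 gave 81.7 and 77.0, above them on array 2 alone. Of 6 testis germ cell genes 1 was bright, Tnp1, on a probe set with the suffix _r_at, and the 6 summed to 1531.5 and 1581.5. Of 3 fat genes 1 was bright, Lep, and the brown fat gene Ucp1 gave 57.1 and 69.7. None of these markers was listed at 0. Their part in the readings of Cox6b2, Cox8b and Cox8c was not tested.

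In complex V, 10 of 14 genes were bright. The F1 part of the enzyme, its catalytic head with the central stalk, was bright in all 4 measured genes. However, Atp5d was not bright with probe sets averaged in log2 signal or with marked suffixes left out. The alpha subunit gene Atp5a1 gave 4863.9 and 4712.8 (4788 ± 107), and Atp5c1, the gamma subunit that turns inside the head, gave 3408.3 and 3422.0 (3415 ± 9.69). Atp5d, the delta subunit, gave 770.8 and 645.4 (708 ± 88.7) on its brightest probe set, and 216.0 and 190.9 or 113.0 and 84.1 on its plain ones. Atp5e, the epsilon subunit, gave 3315.6 and 2171.3 (2743 ± 809). Its only probe set has the marked suffix _i_at, so Atp5e was not measured with marked suffixes left out. The catalytic beta subunit was not analysed here. In the peripheral stalk, which keeps the head from turning, Atp5j gave 2366.8 and 2220.1 (2293 ± 104) and Atp5o, the oligomycin sensitivity protein, gave 1590.5 and 964.3 (1277 ± 443). Its subunit b, Atp5pb, was not bright at 276.0 and 277.6 (277 ± 1.13).

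The rotating c ring of ATP synthase is known to be encoded by several genes whose mature proteins are identical and whose transcripts differ, and 2 of them were measured. Atp5g2 was bright at 448.2 and 560.5 (504 ± 79.4) on a probe set with the suffix _f_at, while its plain probe set gave 87.7 and 86.9. Atp5g1 was not bright, at 125.4 and 191.2 (158 ± 46.5). The bright call of Atp5g2 was lost with the cutoff at the 75th percentile, with probe sets averaged and with marked suffixes left out. Of the 5 small membrane subunits, Atp5l at 4818.1 and 4865.7, Atp5md at 2530.2 and 2892.0, and Atp5mpl at 1333.6 and 2410.4 were bright. Atp5k, the subunit e, gave 200.8 and 138.8 (170 ± 43.8), and Atp5j2, the subunit f, gave 83.6 and 100.1 (91.85 ± 11.7), above the bacterial control on array 2 alone. As in complex IV, genes of 1 assembled machine lay on both sides of the cutoff.

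Other genes of mitochondrial energy supply were counted by the same rule. Of 16 citric acid cycle and pyruvate dehydrogenase genes 14 were bright, with a median log2 signal of 10.04. Citrate synthase Cs gave 1504.9 and 1360.7, and Idh3a, a subunit of isocitrate dehydrogenase, gave 555.8 and 547.5. The members of this list that were not bright were Idh3b, at 26.5 and 20.1, and Dlat, at 216.9 and 186.9. Assembly factors of the chain were bright in 11 of 14 cases, with a median of 9.20. They included Surf1 at 767.9 and 754.3 and the copper carrier Cox17 at 2330.1 and 2261.5, and this list shares Sdhaf1 and Sdhaf2 with the 75 genes.

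The remaining lists lay closer to the 45.2% of all named genes. Carriers and channels of the mitochondrial membranes were bright in 6 of 12 cases, with a median of 8.59. The phosphate carrier Slc25a3, which supplies the ATP synthase, gave 264.4 and 110.5. The ADP and ATP exchanger Slc25a4 gave 2301.2 and 2152.4. Genes of coenzyme Q synthesis and electron entry were bright in 5 of 11 cases, with a median of 8.46. None of the 5 measured Coq genes, which make ubiquinone, was bright, among them Coq3 at 334.4 and 364.7 and Coq4 at 212.9 and 146.1. Genes of protein import were bright in 8 of 14 cases, with a median of 8.90, and the receptor Tomm20 and the channel Tomm40 were not, at 271.4 and 306.3 and at 337.3 and 333.7. Regulators of mitochondrial biogenesis were bright in 4 of 11 cases, with a median of 7.86. The coactivator Ppargc1a gave 62.8 and 34.3, no higher than the bacterial controls, and the related Pprc1 gave 235.2 and 230.1. Genes of the mitochondrial genome were not analysed here.

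**Figure D2:**
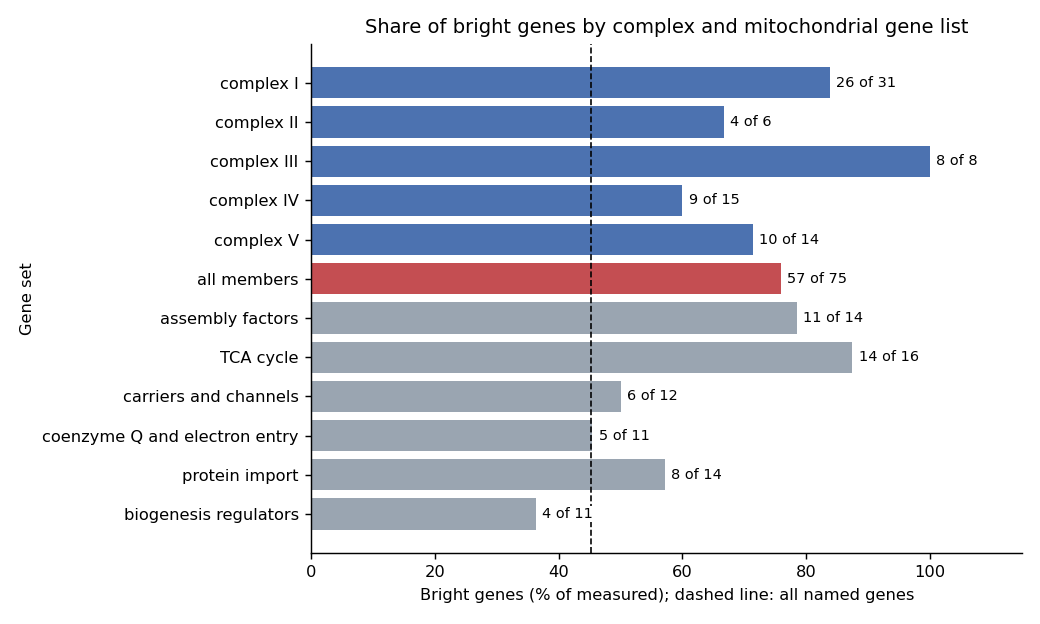
Share of measured genes that were bright (percent), for complexes I to V, for all 75 respiratory chain genes and for 6 lists of other mitochondrial genes, with the count beside each bar and a dashed line at the 45.2% of all named genes. All 5 complexes lie to the right of the line and biogenesis regulators, at 4 of 11, to its left. With probe sets averaged in log2 signal, however, complex IV falls to 5 of 15 (33.3%), below the 38.3% of all named genes. With marked suffixes left out, complexes II (50%), IV (45.5%) and V (50%) lie near the 43.4% of all named genes.

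The tissue of origin was checked with markers. All 4 measured B cell genes, all 4 T cell genes, all 5 macrophage genes and all 3 genes of red cell precursors were bright. All 7 measured genes of pancreatic acinar cells were bright as well, and summed to 59916 on array 1 and 61932 on array 2. The pancreas adjoins the spleen, but the origin of this acinar signal was not tested. Of 5 liver genes 3 were bright. How much of the respiratory chain signal came from each of these cell types was not tested.

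The 2 arrays gave close values for most bright respiratory chain genes. The log2 signal of array 1 was subtracted from that of array 2, and the median difference of bright probe sets was set to 0. Their median over the 57 bright genes was 0.0034, with 31 genes higher on array 2 and 26 higher on array 1. Of the 57 genes 35 differed by less than 1.1-fold, against 56.6% of 3731 bright named genes, and 48 by less than 1.2-fold, against 81.4%. The pooled SD of the log2 signal was 0.175 for the 57 genes and 0.152 for all bright named genes. By complex it was 0.144 in complex I, 0.171 in II, 0.126 in III, 0.0716 in IV and 0.303 in V.

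Of the 57 bright genes 4 lay more than 1.5-fold apart, against 1.53% of all bright named genes, and 3 of the 4 belong to the ATP synthase. Atp5mpl, a small protein of its membrane part, was higher on array 2 by 1.81-fold. The next on that side were Ndufc1, a small complex I subunit, at 652.9 and 1040.3 or 1.60-fold, and Uqcrc1. Atp5o was higher on array 1 by 1.65-fold and Atp5e by 1.53-fold, followed by Ndufb6 at 1997.0 and 1456.0 or 1.37-fold. Each of the 4 genes more than 1.5-fold apart was read by a single probe set, so no other reading of the same gene was at hand. The probe set of Atp5e has the marked suffix _i_at. Within complex V the differences ran both ways, with 5 bright genes higher on each array.

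**Figure D3:**
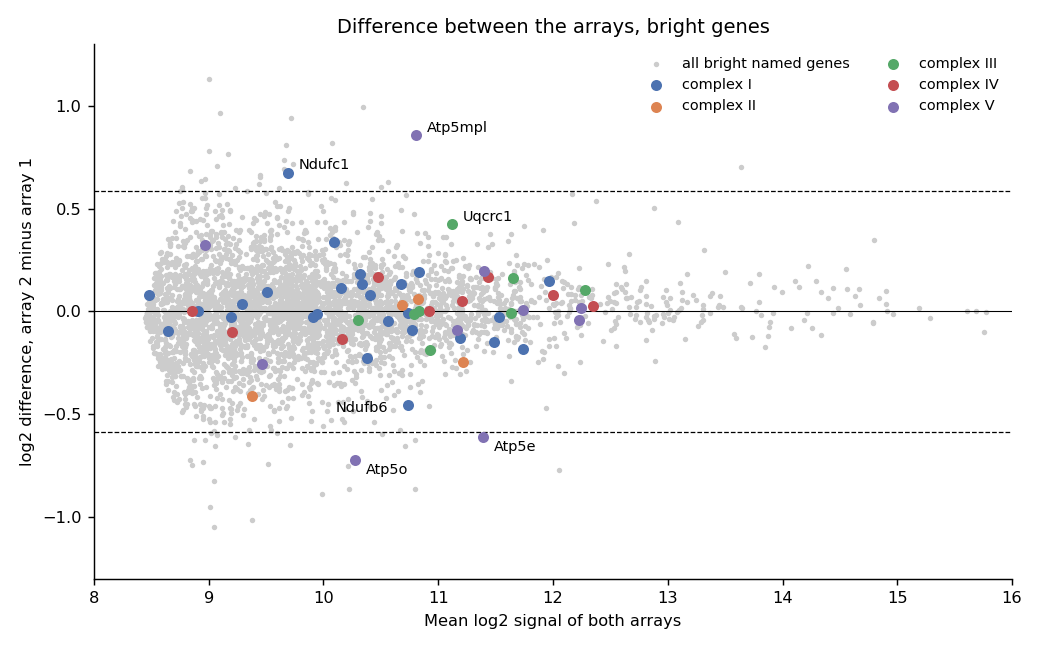
Log2 difference between the arrays (array 2 minus array 1) against the mean log2 signal, for bright genes, with all bright named genes in grey, respiratory chain genes coloured by complex and dashed lines at 1.5-fold. Atp5mpl and Ndufc1 lie above the upper line and Atp5o and Atp5e below the lower one, and 1 named gene outside the set lies beyond the axis.

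Where a gene had several probe sets, these often disagreed. Of the 75 genes 21 had more than 1 single-gene probe set. In 14 of these 21, or 66.7%, a bright probe set stood beside one that was not bright, against 42.5% of all 2073 named genes with several probe sets. Only Atp5c1 and Cyc1 were bright on every probe set, and 5 genes (Atp5g1, Cox4i1, Cox5a, Ndufa1 and Ndufaf4) were bright on none. The widest gap was that of Ndufb6, whose probe sets gave 1997.0 and 1456.0, and 6.1 and 2.1. Ndufb7, a subunit of the complex I membrane arm, gave 2991.6 and 2936.8 on one probe set and 15.1 and 5.6 on another. For Ndufb2, 2 probe sets had means of 2866 and 2097 and the other 2 of 13.8 and 10.3. In 8 genes a bright probe set stood beside one at or below the bacterial controls on both arrays. The matching share of all named genes was not computed for these 8, nor for genes bright on every probe set or on none. Those counts are therefore no trait particular to the respiratory chain genes. In the remaining mixed genes the lower probe set exceeded the controls on at least 1 array, as in Ndufv2, at 220.8 and 252.3, Ndufa3, at 135.5 and 170.3, Ndufb10, at 21.6 and 77.1, and Atp5l, at 114.6 and 115.0.

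**Figure D4:**
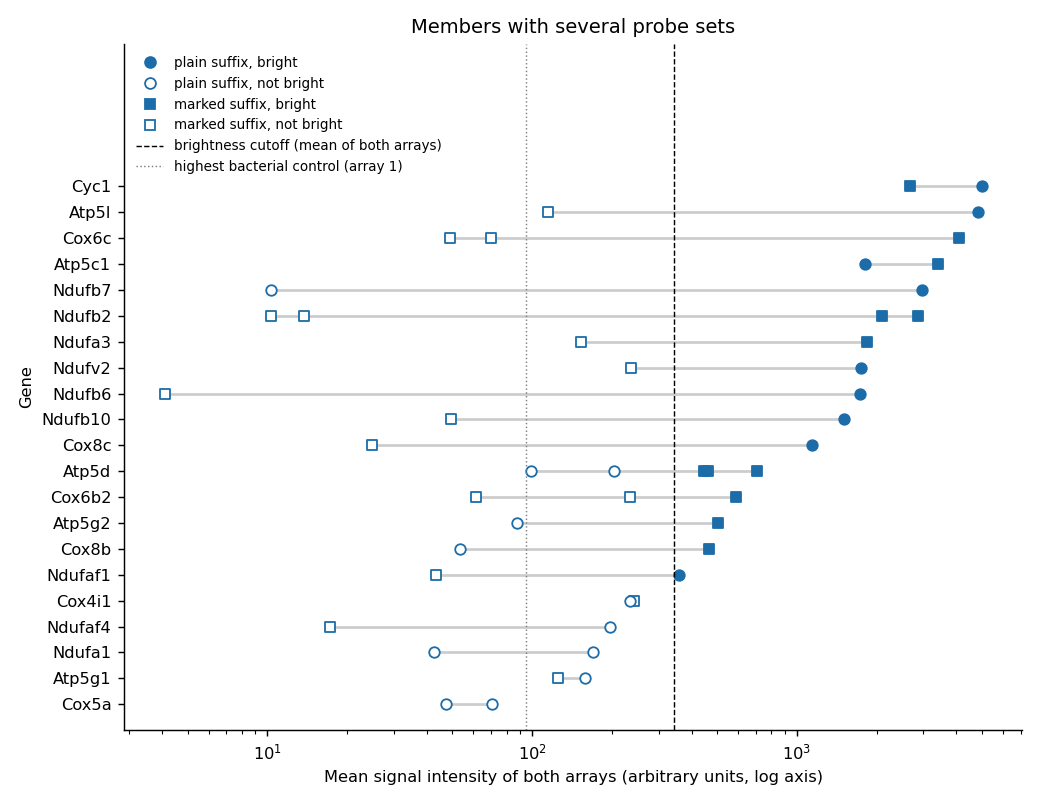
Mean signal intensity of both arrays (arbitrary units, log axis) of each probe set of the 21 genes with several, with filled symbols for bright probe sets, circles for the plain suffix and squares for suffixes that mark similar sequences or relaxed probe selection. Ndufb2, Ndufb6 and Ndufb7 each span from about the bottom of the range to far above the cutoff, while both probe sets of Cox4i1 lie close together at 242 and 235.

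The promoters of these genes were read from RefSeq for the letters of factors known to drive respiratory chain genes. Windows from 250 bases before to 50 after the annotated start (GRCm38.p6) were at hand for 61 of the 75 genes, 66 windows in all, and 6 motifs were searched on both strands. CGCANGCG, the core of the site of nuclear respiratory factor NRF1, was found in 25 windows (37.9%), against 14.2% of 8408 windows of genes on the arrays and 8.21% of all 32851 windows. AAGATGGC, the letters of YY1, were found in 8 windows (12.1%), against 3.73% and 2.75%. CGGAAG, the core bound by ETS factors such as GABP, was found in 31 windows (47.0%), against 25.4% and 16.9%. A longer form of it, CCGGAAGT, was found in 4 windows (6.06%), against 6.68% and 3.89%, and each of its matches is also a match of the shorter one. The Sp1 box GGGCGG was found in 32 windows (48.5%), against 57.1% and 35.7%, and TATAAA in 7 (10.6%), against 9.98% and 13.6%. A match is a description of letters and no evidence of binding, and these shares were not tested. They ran above the genes on the arrays for NRF1, YY1 and the short ETS core, and near or below them for the longer ETS form, Sp1 and TATAAA. The motif forms were chosen after these shares were seen, and the reading for ETS depended on the form. Overlapping windows of Atp5c1, Ndufa5 and Ndufa7 share the same NRF1 letters, which were counted in each window.

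The YY1 letters lay near the start of transcription in most of the 8 genes. In 6 they began within 39 bases after the annotated start, and in 7 they ran in the direction of the gene. They were found beside bright genes (Atp5j, Ndufa3, Ndufa9, Ndufb8 and Ndufc1) and beside genes that were not bright (Atp5j2, Atp5pb and Ndufs4). Stretches of 30 bases from 4 of them, 3 bright genes and Atp5j2, show the shared letters in capitals, with coordinates in GRCm38.p6.
Ndufc1, chr3:51408915-51408944, minus strand: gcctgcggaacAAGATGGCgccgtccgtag
Ndufa9, chr6:126849097-126849126, minus strand: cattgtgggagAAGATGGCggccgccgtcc
Ndufa3, chr7:3617384-3617413, plus strand: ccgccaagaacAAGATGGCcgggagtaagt
Atp5j2, chr5:145191500-145191529, minus strand: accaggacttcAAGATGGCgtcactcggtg

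The NRF1 letters were found in 22 genes, with members in all 5 complexes, and 17 of the 22 were bright, a share close to the 76.0% of all 75 genes. Cycs, Sdha, Atp5k, Ndufa12 and Ndufaf4 held them and were not bright. Sdha held 3 matches in 1 window, and Cox6a1, Uqcrc1, Ndufa8, Ndufb10, Atp5c1 and Atp5md held 2 each. A stretch from cytochrome c and from a gene of each complex is given, with the motif in capitals, to show how the letters sit in each. In complex IV Cox6a1 was the only gene that held them, and the short ETS core was likewise found in genes of all 5 complexes.
Ndufa8 (complex I), chr2:36049329-36049358, minus strand: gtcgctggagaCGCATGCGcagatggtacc
Sdha (complex II), chr13:74350319-74350348, minus strand: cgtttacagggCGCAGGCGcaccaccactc
Uqcrc1 (complex III), chr9:108936668-108936697, plus strand: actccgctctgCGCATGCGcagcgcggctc
Cycs (cytochrome c), chr6:50566612-50566641, minus strand: ccatgctagctCGCATGCGcgcgcacaaac
Cox6a1 (complex IV), chr5:115349101-115349130, minus strand: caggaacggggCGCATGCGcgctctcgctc
Atp5g2 (complex V), chr15:102671070-102671099, minus strand: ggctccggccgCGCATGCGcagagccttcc

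For the pair of subunit VIIa genes, which lay on opposite sides of the cutoff, the 250 bases before the annotated start are given in full. The upstream stretch of the bright general form Cox7a2 held 1 Sp1 box, shown in capitals, and that of the muscle form Cox7a1, at background, held none of the 6 motifs. Their content of G and C was 54.8% and 51.2%. After the start, the window of Cox7a2 also held the short ETS core, beginning at base 35. In the subunit VIII pair the whole window of Cox8a, at background, held the longer ETS form across and after the start. That of Cox8b, which was bright, held TATAAA beginning at base 5 after the start, and none of the other motifs.
Cox7a2, chr9:79759854-79760103, minus strand: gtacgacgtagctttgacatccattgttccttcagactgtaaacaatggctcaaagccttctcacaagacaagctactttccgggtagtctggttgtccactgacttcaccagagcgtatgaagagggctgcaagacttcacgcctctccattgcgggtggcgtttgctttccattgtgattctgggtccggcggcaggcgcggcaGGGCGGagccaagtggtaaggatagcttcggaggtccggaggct
Cox7a1, chr7:30183921-30184170, plus strand: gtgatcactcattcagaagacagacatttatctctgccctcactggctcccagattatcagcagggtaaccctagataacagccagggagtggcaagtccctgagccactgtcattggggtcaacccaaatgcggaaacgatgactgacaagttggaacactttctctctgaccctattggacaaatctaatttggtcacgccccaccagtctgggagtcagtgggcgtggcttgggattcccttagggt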

How the data were processed

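Total RNA of mouse spleen was measured on 2 arrays. The authors deposited linear signal intensities, 1 for each of 12488 probe sets on each array. With the lowest and highest 2% left out, the deposited intensities averaged 500.265 and 500.278, which shows scaling to a shared target. The sources used here do not give the software. Control probe sets (66, AFFX prefix) were left out, and of the other 12422 the platform annotation names 1 gene for 10833, several for 396 and none for 1193. All 75 genes were found by identifier in the RefSeq gene table of GRCm38.p6, with 0 changed symbols, and that table served for names.

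Intensities were floored at the 20th percentile of their array (41.8 on each array) before log2 was taken. Bright means above the 60th percentile of both arrays. No test was run, since there is 1 group. The genes, the gene lists and the rule for named genes were chosen with earlier results of these data known. Named were all genes that were not bright, tissue isoforms, core subunits, the 3 bright genes furthest apart in each direction, genes whose probe sets disagreed, and the first 2 measured genes of each list. Other genes named with values, such as Ndufab1, Ndufa13, Idh3b and Dlat, were picked once their values were known. The motifs were chosen after the signals were seen, and the choice of motif forms after their shares were seen. Alternatives changed 1 choice at a time: each array alone, other cutoffs, floors, a pseudocount of 16, quantile normalization, no centring, the mean over probe sets, marked suffixes left out, and probe sets that name several genes. The mean over probe sets was taken on floored log2 signals, not on linear intensities. Code was tested on simulated data. Python 3.11.15, numpy 2.4.6, pandas 2.3.3, scipy 1.17.1 and matplotlib 3.10.9 were used.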

Additional observations from a re-analysis of the deposited data

Results flagged for a closer look

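Signal was also present on probe sets that the counts above do not use, because they name several genes at once and cannot be assigned to 1. Of 10 such probe sets that name at least 1 respiratory chain symbol, 9 lay above every bacterial control in each array and 8 were bright, with means from 582 to 12621. They hold 12 symbols that no single-gene probe set names, among them pseudogenes and close copies. The matching shares over all 396 probe sets that name several genes were not computed, so these counts have no background to be read against. With 2 arrays in 1 group, neither a check for an outlying array nor a comparison of groups was possible.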

How the results depend on the processing

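The number of bright genes, 57 of 75, was 58 on each array alone, against 47.6% of all named genes in each case. It was 67 of 75 with the highest bacterial control as the cutoff, against 73.9% of all named genes, and 41 of 61 (67.2%) with marked suffixes left out, against 43.4%. It was 48 with a 75th percentile cutoff, against 28.5% of all named genes, and 47 of 75 (62.7%), the lowest share, with the mean over probe sets, against 38.3%. With marked suffixes left out, 2 of 4 genes of complex II (50%), 5 of 11 of complex IV (45.5%) and 6 of 12 of complex V (50%) were bright. These shares lay near the 43.4% of all named genes in that setting. The isoform sets, with 4 of 11 genes (36.4%) bright, lay below it, and complexes I (22 of 27) and III (6 of 6) lay above it. The main counts for complexes II, IV and V and the isoform sets were 4 of 6, 9 of 15, 10 of 14 and 8 of 14. With marked suffixes left out, 1 of 4 genes with several probe sets was mixed, against 14 of 21 with all suffixes. The share of mixed genes among all named genes was not computed without marked suffixes, so this drop may not be particular to these genes. That setting removed 14 genes, and Atp5d, Atp5g2 and Cox8b were no longer bright. With the mean over probe sets 5 of 15 genes of complex IV, or 33.3%, were bright, below the 38.3% of all named genes. In that setting 4 of 14 of the isoform sets were bright, and 5 of 14 with a 75th percentile cutoff. With the bacterial control as the cutoff complex IV stood at 11 of 15 (73.3%), no higher than the 73.9% of all named genes. Cycs counted as bright in that setting (1 of 1), and 7 of the 67 genes above the cutoff lay more than 1.5-fold apart. The share of all named genes more than 1.5-fold apart was not computed in that setting. The median log2 signal of 10.32 was 10.28 to 10.32 on single arrays, 9.54 with the mean over probe sets, 10.15 with marked suffixes left out and 10.27 with several-gene probe sets also used. The median difference between the arrays lay between -0.0021 and 0.0152 under all alternatives run for it, and the pooled SD between 0.171 and 0.199. No paired analysis was possible because there is only 1 group. Intensities near those of the bacterial controls carry little information on the transcript.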
